A study of Chlamydomonas reinhardtii with 28 samples.

Results

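Photoreceptor genes were picked out of a transcriptome comparison of 7 laboratory strains of the unicellular green alga Chlamydomonas reinhardtii, all of which are in use as wild types. A gene was taken as a photoreceptor gene by its definition in the deposited table or by its symbol. The definition had to name a phototropin, a rhodopsin, a cryptochrome or UVR8, or the symbol had to be PHOT1 or UVR8. Rows that named a photolyase without a cryptochrome were left out. This gave 14 of the 17611 genes in the table: PHOT1, the channelrhodopsins CHR1 and CHR2, the histidine kinase rhodopsins HKR1, HKR2, HKR3, HKR4, HKR56 and HKR78, the cryptochromes PCRY1, ACRY1, DCRY1 and DCRY2, and UVR8. The strains were CC-124, CC-1009, CC-1691, CC-4532 and CC-4533 of mating type minus and CC-125 and CC-1690 of mating type plus. CC-4532 is the strain whose genome served as the mapping reference, and CC-4533 is the parent of a widely used library of insertional mutants. Each strain was grown as 4 cultures on acetate-containing TAP medium with Kropat's trace nutrients, shaken at 180 rpm under 50 to 70 µmol m-2 s-1 of continuous light, and was harvested in mid-log phase with no other treatment, and the poly(A) RNA of all 28 cultures was sequenced.

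Chlamydomonas steers by a single eyespot, where channelrhodopsins, which are retinal-binding cation channels opened by light, start the electrical signal for phototaxis. Phototropin and the cryptochromes bind flavins and absorb blue light, and they act in the sexual cycle, in the size and sensitivity of the eyespot and in the control of nuclear genes for photoprotection. UVR8 senses UV-B through its own tryptophans and signals through the ubiquitin ligase subunit COP1. The histidine kinase rhodopsins join a rhodopsin to signaling domains, and the roles of most of them in the cell are not known.

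Levels are given as FPKM, fragments scaled by the length of the transcript and by a factor for each library. They can be compared between genes because that length is divided out. Summed FPKM ran from 480355 to 1.32e+06 among the libraries. The median ratio of a gene to its mean over all libraries was 0.934 to 0.958 in each. The libraries were thus on a common median rather than a common sum. All 14 genes passed the filter on low values, a mean above 1 FPKM in at least 1 strain, which 14785 genes of the table passed. Each library listed 16121 to 16594 genes above 0 FPKM. How many reads stand behind a value is unknown. Relative to each other, as read from the steps between low FPKMs, the 8 libraries of the strains CC-125 and CC-4533 had depths of 1.21 to 1.97 and the 20 libraries of the remaining 5 strains depths of 0.584 to 1.10. CC-125 and CC-4533 form a library set of their own in the labels, so that library set and strain cannot be told apart for them. MID1, the gene that specifies the minus mating type, was at 3.12 to 11.4 FPKM in the 20 minus libraries. It was at 0 to 0.08 FPKM in the 8 plus libraries, as the mating types stated for the strains require. One library stood far from its group: in CC-4533 replicate 3, 3135 genes were over 2-fold away from the average of the other 3 cultures, against 44 to 524 genes in each other library. CC-125 replicate 1 had 176 such genes, and 11 of the 14 photoreceptor genes were higher in it than in all 3 other cultures of the strain. Other libraries were as one-sided for these genes, with 12 of the 14 below the other 3 cultures in CC-1691 replicate 2, 11 in CC-125 replicate 2 and 10 in CC-124 replicate 1. The main counts were also computed without CC-4533 replicate 3 and CC-125 replicate 1, a choice made after their values were seen, and without each library in turn.

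All 14 photoreceptor transcripts differed among the strains (limma moderated F test, Benjamini-Hochberg adjusted p from 3.18e-11 for UVR8 to 0.00243 for HKR56, 28 libraries). So did 91.0% of all genes tested, so that the count by itself does not set these genes apart. The fold between the highest and the lowest strain mean ran from 1.71 for ACRY1 and DCRY2 to 7.77 for DCRY1. The median difference on the scale of log2(FPKM + 0.1) was 1.12, against 1.22 over all genes tested, and strains accounted for a median of 85.5% of the variance, against 81.1%. CHR1, with a mean of 96.1 FPKM over the 28 libraries, stood higher than 95.4% of the genes tested and PHOT1, with 55.4 FPKM, higher than 92.9%, whereas DCRY1, with 2.05 FPKM, stood higher than only 23.98%.

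**Figure D1:**
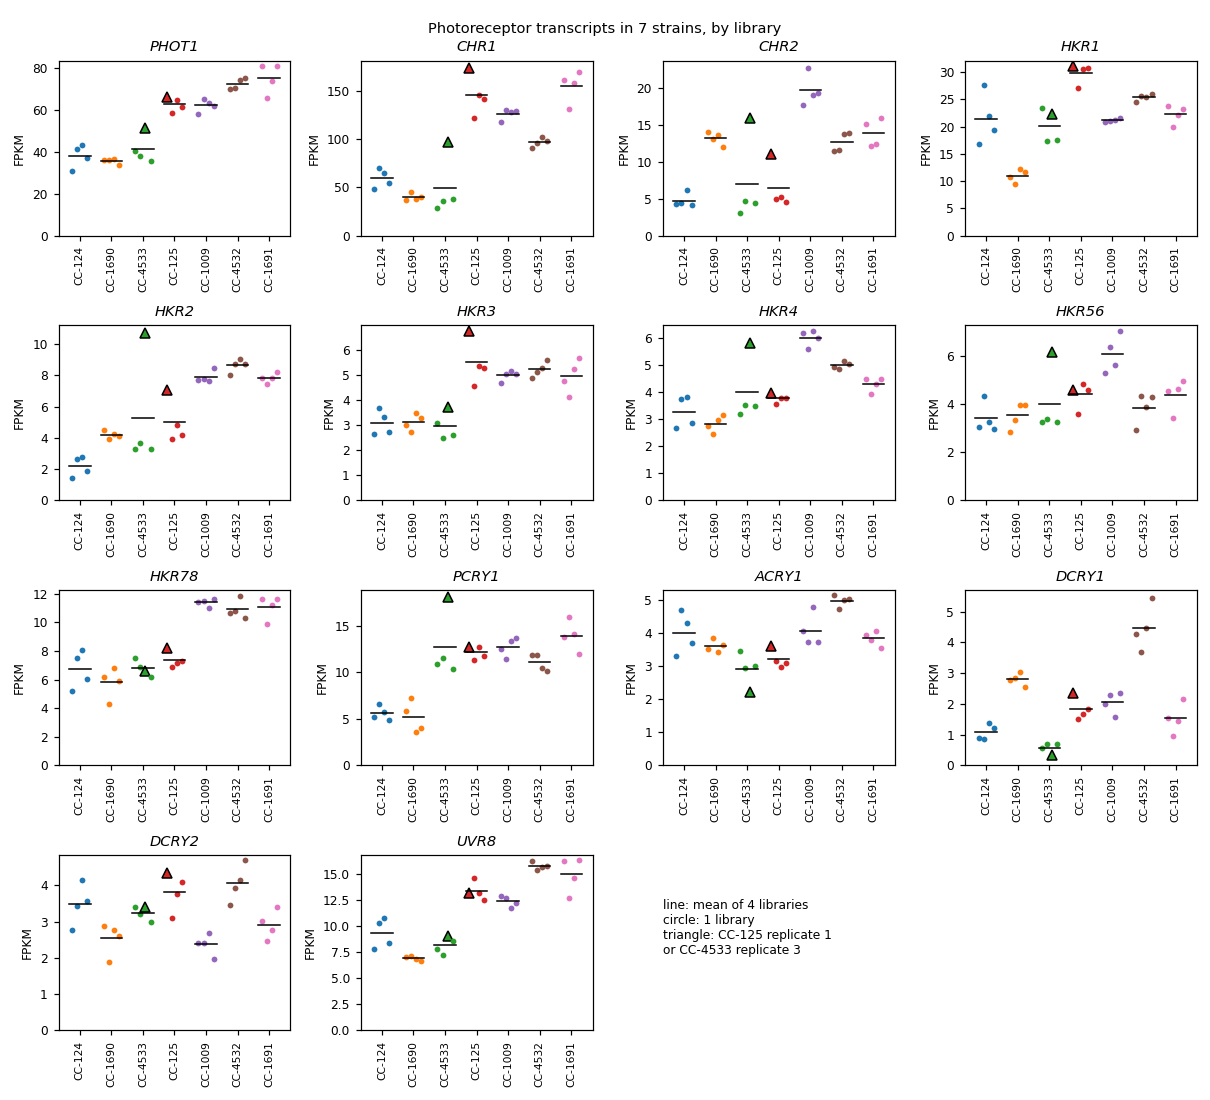
Level of each photoreceptor transcript in FPKM (linear axes from 0) in every library of the 7 strains. Circles are single libraries, lines the mean of 4 libraries, and triangles mark CC-125 replicate 1 and CC-4533 replicate 3, which lies at 16 FPKM for CHR2 where the other CC-4533 cultures lie at 3.06 to 4.73 FPKM.

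CHR1 (Cre14.g611300) encodes the channelrhodopsin with the larger part in phototaxis, and by strain means it was the most abundant of the 14 transcripts in every strain. In CC-4533 this rested on replicate 3, without which PHOT1 (37.9 ± 2.38 FPKM, SD, n = 3) was above CHR1 (33.9 ± 5.11 FPKM). Its 4 cultures read 36.4, 45.3, 38.2 and 39.7 FPKM in CC-1690 and 162, 131, 158 and 170 FPKM in CC-1691. In CC-125 they read 174, 122, 146 and 141 FPKM, and in CC-1009 118, 130, 128 and 129 FPKM. CC-1690 lay below these 3 strains with no overlap, and of the 3, CC-125 overlapped with both of the others. CC-4532 lay in between, with 90.3, 95.7, 102 and 98.4 FPKM, and CC-124 below it, with 48.0, 70.4, 64.8 and 54.4 FPKM. The cultures of CC-4533 were at 28.2, 35.4, 96.9 and 38.1 FPKM, where replicate 3 alone reached the level of CC-4532. Without that library the mean of CC-4533 (33.9 FPKM) was below that of CC-1690 (39.9 FPKM), so that CC-1690 was the lowest strain for CHR1 only with it.

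The mean of CHR1 was 155 ± 16.7 FPKM (SD, n = 4) in CC-1691 and 39.9 ± 3.84 FPKM in CC-1690, a 3.89-fold difference (log2 difference 1.95 ± 0.22 SE). A gene was called differentially expressed (DEG) between a pair of strains where the difference exceeded 2-fold in limma's treat test at an adjusted p below 0.01. For CHR1 this held in 3 of the 21 pairs: CC-1691 over CC-1690 (adjusted p = 0.00171), CC-125 over CC-1690 (adjusted p = 0.00348) and CC-1691 over CC-4533 (adjusted p = 0.00792). With CC-125 replicate 1 and CC-4533 replicate 3 left out, CHR1 was a DEG in 7 pairs. The call of CC-1691 over CC-1690 held with each library left out in turn (adjusted p up to 0.00755), that of CC-125 over CC-1690 was lost without CC-1690 replicate 1 or 3 or CC-125 replicate 1 (up to 0.0182), and that of CC-1691 over CC-4533 was lost in 11 of the 28 cases (up to 0.0572). Neighbors in the order of the means did not differ by the moderated test at an adjusted p below 0.01, with the exception of CC-124 and CC-4532 (adjusted p = 0.00768).

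CHR2 (Cre02.g085257), the other channelrhodopsin of the eyespot, was 4.15-fold apart between its extremes, but in another order of strains. It was highest in CC-1009, with 17.7, 22.8, 19.0 and 19.3 FPKM, and lowest in CC-124, with 4.29, 4.38, 6.11 and 4.19 FPKM. All 4 cultures of CC-1009 were above the other 24 libraries. In CC-1690, where CHR1 was low, CHR2 read 14.02, 13.2, 13.6 and 12.04 FPKM, close to CC-1691 with 15.1, 12.1, 12.4 and 15.9 FPKM and to CC-4532 with 11.5, 11.7, 13.7 and 13.9 FPKM. These 3 strains overlapped, and neighbors among them were not distinguished by the test (adjusted p = 0.867 and 0.871).

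The other 2 strains each had a single library apart. CC-125 read 11.04, 4.91, 5.22 and 4.53 FPKM and CC-4533 read 3.06, 4.73, 16 and 4.37 FPKM. Replicate 1 of CC-125 and replicate 3 of CC-4533 were thus 2 or more times as high as any other culture of their strain, and with them CHR2 was a DEG in 0 of the 21 pairs by limma's treat test (4 at an unadjusted p below 0.05), although in 12 pairs it was more than 2-fold apart and passed the moderated test against no change. Without them the means were 4.89 ± 0.346 and 4.05 ± 0.879 FPKM (SD, n = 3 each), next to 4.74 ± 0.915 FPKM in CC-124 (n = 4), and CHR2 was a DEG in 7 pairs, with CC-4533 in place of CC-124 as the lowest strain. Leaving out either library by itself, or CC-4533 replicate 1, also made it a DEG in at least 1 pair. The direction against the other 6 strains was the same in both fits, lower in CC-124 (log2 difference -1.18 with and -1.05 without these libraries), in CC-125 (-0.77 and -0.98) and in CC-4533 (-0.87 and -1.32) and higher in CC-1009 (1.20 and 1.33). With all libraries but 1 in the fit, the call in CC-125 was lost without its replicate 2, 3 or 4 (adjusted p up to 0.0435) and that in CC-4533 without its replicate 1, 2 or 4 (adjusted p up to 0.042). In CC-1690 CHR2 did not pass in all libraries (0.54, limma adjusted p = 0.0432), and it passed as higher without both libraries (0.67, adjusted p = 1.95e-06) and without CC-4533 replicate 3 alone (0.62, adjusted p = 0.000489).

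The ratio of CHR1 to CHR2 in FPKM varied among strains. It was 2.59 to 3.44 in the 4 cultures of CC-1690, below the range of every other strain. The ratio was 5.71 to 6.74 in CC-1009, 7.10 to 8.20 in CC-4532, 6.06 to 9.21 in CC-4533, 10.6 to 12.7 in CC-1691 and 10.6 to 16.1 in CC-124. CC-125 had the highest values, 15.8 to 31.2, the lowest of which came from replicate 1. The ratio is given as a description, and its differences were not tested.

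**Figure D2:**
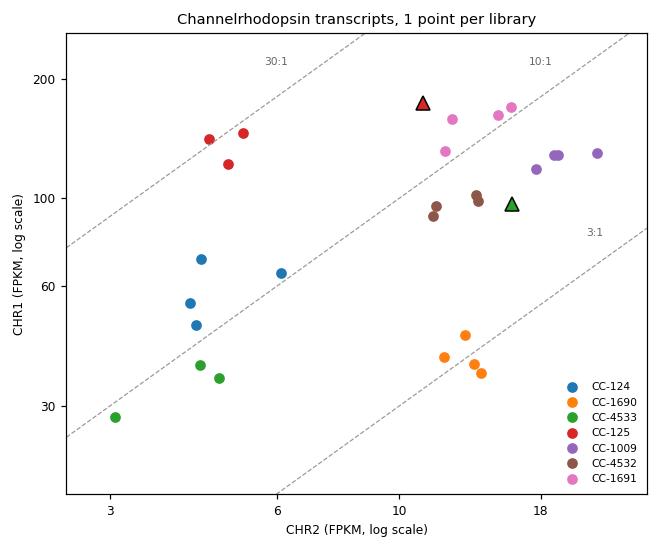
CHR1 against CHR2 in FPKM, both on log axes, with 1 point for each of the 28 libraries, and with dashed lines where CHR1 is 3, 10 or 30 times CHR2. The 4 cultures of CC-1690 lie near the 3:1 line and those of CC-125 between about 16:1 and 31:1, and the triangles mark CC-125 replicate 1 and CC-4533 replicate 3, which lie to the right of their groups.

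PHOT1 (Cre03.g199000) encodes phototropin, the blue light receptor kinase that acts in gamete formation and in the induction of photoprotective genes. Its cultures read 36.2, 36.0, 36.4 and 33.8 FPKM in CC-1690, 30.9, 41.2, 43.4 and 37.0 FPKM in CC-124 and 40.2, 38.0, 51.3 and 35.4 FPKM in CC-4533. In the other strains PHOT1 read 57.9, 65.3, 63.3 and 62.1 FPKM in CC-1009, 65.9, 58.5, 64.8 and 61.4 FPKM in CC-125, 70.0, 70.5, 74.4 and 75.1 FPKM in CC-4532 and 81.0, 65.9, 73.6 and 80.8 FPKM in CC-1691. The 12 libraries of the first 3 strains all lay below the 16 libraries of the other 4. Between CC-1691 (75.3 ± 7.20 FPKM, SD, n = 4) and CC-1690 (35.6 ± 1.24 FPKM) the fold was 2.12, close to the limit of the treat test, and PHOT1 was a DEG in 0 pairs (0 also at an unadjusted p below 0.05, and 2 by the moderated test with a 2-fold limit). Tested against no change, PHOT1 passed in every strain: relative to the mean of the other 6, the log2 difference was -0.67 in CC-1690, -0.56 in CC-124 and -0.44 in CC-4533, and 0.27 in CC-1009, 0.28 in CC-125, 0.53 in CC-4532 and 0.59 in CC-1691 (limma adjusted p from 6.32e-08 to 0.00709, 28 libraries). The calls in CC-125 and CC-1009 were lost when the libraries were quantile normalized (0.07, adjusted p = 0.591, and 0.30, adjusted p = 0.0198), and also without CC-125 replicate 1, 3 or 4 and without CC-1009 replicate 2, 3 or 4, respectively (adjusted p up to 0.0215 and 0.0358).

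UVR8 (Cre05.g230600), the UV-B receptor, showed the same separation of strains at a lower level. In CC-1690 it read 7.02, 7.14, 6.87 and 6.68 FPKM, all below the other 24 libraries, and in CC-4532 16.2, 15.4, 15.7 and 15.8 FPKM. The means were 6.93 ± 0.199 FPKM (SD, n = 4) in CC-1690, 8.15 ± 0.837 in CC-4533 and 9.30 ± 1.45 in CC-124, and 12.4 ± 0.509 in CC-1009, 13.3 ± 0.895 in CC-125, 14.95 ± 1.71 in CC-1691 and 15.8 ± 0.331 FPKM in CC-4532. The step from CC-124 to CC-1009 was the only one between neighboring means that passed the moderated test (limma adjusted p = 0.000784), and the highest and lowest strains were 2.27-fold apart, with 0 DEG pairs (1 at an unadjusted p below 0.05 in limma's treat test, and 2 by the moderated test with a 2-fold limit). Over the 7 strain means of log2(FPKM + 0.1), UVR8 and PHOT1 had a Pearson correlation of 0.97, the highest among all pairs of the 14 genes, and each had 0.91 with CHR1. These correlations are descriptions over 7 points, each the mean of the same 4 libraries for both genes.

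CC-124, CC-1690 and CC-4533 were the 3 lowest strains for 5 of the 14 genes (PHOT1, UVR8, CHR1, HKR3 and HKR78), and this was so for 8.31% of all genes tested. Without CC-4533 replicate 3 the number was 9, with HKR2, HKR4, HKR56 and PCRY1 added, against 10.3% of all genes tested. These 3 strains were grouped from the values of the same genes, so the shares over all genes are no test of the counts. Of the 3 strains, only CC-4533 is in the smaller library set and only CC-1690 is of mating type plus. Whether library set or mating type bears on the grouping was not tested.

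Among the histidine kinase rhodopsins, HKR1 (Cre02.g074150) was the most abundant. Its product is known from the alga as a UV-A absorbing rhodopsin of the eyespot. In CC-1690 it read 10.8, 9.46, 12.2 and 11.7 FPKM, all below the other 24 libraries, and in CC-125 31.1, 27.1, 30.6 and 30.9 FPKM. The means of the other 5 strains lay between, at 20.2 ± 3.15 (SD, n = 4) in CC-4533, 21.2 ± 0.264 in CC-1009, 21.4 ± 4.58 in CC-124, 22.3 ± 1.63 in CC-1691 and 25.4 ± 0.614 FPKM in CC-4532. CC-125 over CC-1690 was its only DEG pair (log2 difference 1.44 ± 0.12 SE, adjusted p = 0.00544), and this call was lost without CC-1690 replicate 1 or 2 or CC-125 replicate 1, 3 or 4 (adjusted p up to 0.0285). The lower level in CC-1690 passed the moderated test (log2 difference from the other 6 strains -1.07, adjusted p = 1.44e-10).

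HKR2 (Cre11.g467678), annotated as a histidine cyclase rhodopsin, was lowest in CC-124, with 1.46, 2.62, 2.81 and 1.91 FPKM, again below the other 24 libraries. It was highest in CC-4532, with 8.04, 8.73, 9.04 and 8.74 FPKM. CC-1009 read 7.70, 7.80, 7.65 and 8.49 FPKM and CC-1691 7.82, 7.46, 7.86 and 8.22 FPKM, and these 3 strains overlapped and were not distinguished by the test (adjusted p = 0.984 and 0.739 between neighbors). In CC-1690 the cultures were at 4.53, 3.92, 4.26 and 4.10 FPKM. As with CHR2, the same libraries stood out in CC-125, with 7.06, 3.92, 4.83 and 4.16 FPKM, and in CC-4533, with 3.30, 3.66, 10.7 and 3.31 FPKM, where the value of replicate 3 was the highest of all 28. CC-4532 over CC-124 was the only DEG pair in all libraries (log2 difference 1.97 ± 0.25 SE, adjusted p = 0.00636), and it was lost when replicate 1 or 4 of CC-124 or any replicate of CC-4532 was left out (adjusted p up to 0.0451). Without CC-125 replicate 1 and CC-4533 replicate 3 there were 3 DEG pairs. Relative to the other 6 strains, HKR2 in CC-4533 was lower in the fit without these libraries (log2 difference -0.60, adjusted p = 4.14e-05) but did not pass in all libraries (-0.23, adjusted p = 0.312).

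The remaining 4 histidine kinase rhodopsins spanned between 1.79-fold and 2.12-fold, and none was a DEG by limma's treat test (0 pairs of any of them at an unadjusted p below 0.05, and 1 pair, of HKR4, by the moderated test with a 2-fold limit). HKR78 (Cre17.g733150) took 2 levels, with means of 10.9 ± 0.653 (SD, n = 4) in CC-4532, 11.1 ± 0.838 in CC-1691 and 11.4 ± 0.279 FPKM in CC-1009 and of 5.80 ± 1.08 to 7.40 ± 0.579 FPKM in the other 4 strains. The step between CC-125 and CC-4532 passed the test (limma adjusted p = 0.000458), and no other step between neighbors did. HKR3 (Cre01.g038050) had means of 2.99 ± 0.562 in CC-4533, 3.13 ± 0.326 in CC-1690 and 3.10 ± 0.495 FPKM in CC-124, and of 4.95 ± 0.661 to 5.50 ± 0.913 FPKM in the others, with 1 step between neighbors that passed, CC-1690 to CC-1691 (adjusted p = 0.000144). HKR4 (Cre07.g329900) had means from 2.83 ± 0.2997 FPKM in CC-1690 to 6.00 ± 0.297 FPKM in CC-1009, and none of the steps between neighbors passed. HKR56 (Cre15.g643503), with the lowest share of variance between strains (55.9%), was higher in CC-1009 (6.08 ± 0.790 FPKM, log2 difference 0.64) and passed in no other strain, where the means were 3.40 ± 0.624 to 4.39 ± 0.546 FPKM. Its F test did not pass without CC-1009 replicate 2 or 4 (adjusted p = 0.0112 and 0.0156).

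DCRY1 (Cre02.g078939), a DASH-type cryptochrome of the family that also holds DNA photolyases, had the widest span of the 14 genes and the lowest level. CC-4532 read 4.28, 3.68, 4.48 and 5.44 FPKM, all above the other 24 libraries, and CC-4533 read 0.57, 0.71, 0.33 and 0.69 FPKM, all below them. Between them were CC-1690 with 2.79, 2.83, 3.04 and 2.54 FPKM, CC-1009 with 1.99, 2.29, 1.57 and 2.37 FPKM and CC-125 with 2.36, 1.51, 1.67 and 1.83 FPKM. CC-1691 read 1.55, 0.97, 1.45 and 2.16 FPKM and CC-124 0.89, 0.85, 1.37 and 1.23 FPKM. CC-4532 over CC-4533 had a log2 difference of 2.79 ± 0.21 SE on the scale of log2(FPKM + 0.1) (limma treat test, adjusted p = 9.79e-08), and the mean FPKMs were 7.77-fold apart. DCRY1 was also a DEG in CC-4532 over CC-124 (1.96, adjusted p = 0.00135) and in CC-1690 over CC-4533 (2.14, adjusted p = 0.000107), and these calls held with each library left out in turn (adjusted p up to 0.00908). CC-1690, low for many of the other genes, was high for this one (log2 difference from the other 6 strains 0.79, adjusted p = 0.000111), and in all libraries it was the only one of the 14 called higher there. At these low levels the depth behind the values is unknown.

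PCRY1 (Cre06.g295200), the plant-like cryptochrome, which acts in the circadian clock and the sexual cycle, had 2 levels among the strains. It read 5.88, 7.28, 3.59 and 4.05 FPKM in CC-1690 and 5.21, 6.60, 5.79 and 4.85 FPKM in CC-124, and between 10.2 and 18.1 FPKM in the 20 libraries of the other 5 strains. The groups did not overlap, and the step from CC-124 (5.61 ± 0.764 FPKM, SD, n = 4) to CC-4532 (11.1 ± 0.884 FPKM) was the only one that passed (limma adjusted p = 3.00e-05). PCRY1 was a DEG in 0 pairs by the treat test, in 4 at an unadjusted p below 0.05 and in 9 by the moderated test with a 2-fold limit, and without CC-1690 replicate 2 it was a DEG in 1. CC-4533, low for PHOT1, UVR8 and CHR1, was thus on the high side for PCRY1, with 10.95, 11.6, 18.1 and 10.4 FPKM. Relative to the other 6 strains its log2 difference was 0.41 (adjusted p = 0.00933) in all libraries and 0.23 (adjusted p = 0.121) without CC-125 replicate 1 and CC-4533 replicate 3, which ended the call, as did leaving out any 1 of 21 of the 28 libraries (adjusted p up to 0.119, without CC-4533 replicate 3).

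ACRY1 (Cre06.g278251), the animal-like cryptochrome, which responds to blue, yellow and red light, and DCRY2 (Cre01.g030650), the other DASH-type gene, spanned 1.71-fold each. ACRY1 went from 2.90 ± 0.5004 FPKM (SD, n = 4) in CC-4533 to 4.97 ± 0.177 FPKM in CC-4532, and DCRY2 from 2.37 ± 0.302 FPKM in CC-1009 to 4.06 ± 0.508 FPKM in CC-4532. Without CC-125 replicate 1 and CC-4533 replicate 3 the lowest strain for ACRY1 was CC-125, and its fold was 1.61. Neighboring strains overlapped throughout for both genes and were not distinguished by the test, and in all pairs of strains there were 0 DEG calls, 0 at an unadjusted p below 0.05 and 0 by the moderated test with a 2-fold limit. The lowest Pearson correlations over the 7 strain means among all pairs of the 14 genes were those of DCRY2 with CHR2 (-0.61) and with HKR56 (-0.45).

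The photoreceptor transcripts were also counted by strain. In limma's moderated test against the average of the other 6 strains (adjusted p below 0.01), 10 of 14 genes were higher in CC-4532 and 0 were lower, against 20.7% and 21.2% of all genes tested (10 and 0 at an unadjusted p below 0.05). CC-1009 had 8 higher and 1 lower (DCRY2), against 20.0% and 17.9%. CC-1691 had 6 higher and 0 lower, against 17.9% in the first direction and 17.4% in the second (8 and 0 at an unadjusted p below 0.05), and CC-125 had 5 higher and 1 lower (CHR2), against 25.4% and 22.5%. All shares over all genes are for the adjusted limit, and none is given for an unadjusted p below 0.05.

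The opposite held in 3 strains. In CC-124, 10 genes were lower and 0 higher, against 21.9% and 19.8% of all genes tested (11 and 0 at an unadjusted p below 0.05), and HKR1, HKR56, ACRY1 and DCRY2 did not pass there. In CC-1690, 9 genes were lower and 1 was higher, against 30.4% and 29.2%. In CC-4533, 8 genes were lower and 1 (PCRY1) was higher, against 25.0% and 23.3%. The median of the 14 log2 differences was -0.42 in CC-124, -0.52 in CC-1690 and -0.38 in CC-4533, and 0.19 in CC-125, 0.38 in CC-1009, 0.39 in CC-1691 and 0.44 in CC-4532, where the median of all genes was within 0.01 of 0 in each strain. The number lower in CC-124 was 6 when its replicate 1 or its replicate 4 was left out. Over the 14 genes, the median log2 difference from the other 3 cultures was -0.34 and -0.18 in these replicates. In CC-124 replicates 2 and 3 it was 0.29 and 0.28, and which cultures shared a batch is not given. The number higher in CC-4532 was 6 without its replicate 4, and the number higher in CC-1009 was 5 without its replicate 3 or its replicate 4. The 7 comparisons share libraries, so their counts are not independent of each other. As above, no share over all genes is given at the unadjusted limit.

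**Figure D3:**
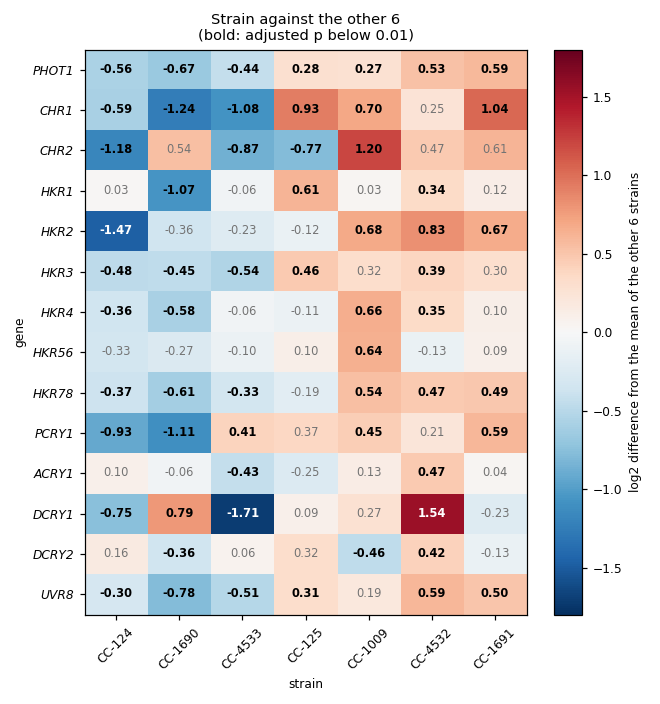
Difference of each strain from the mean of the other 6 on the scale of log2(FPKM + 0.1), 14 genes by 7 strains, with red for higher and blue for lower and bold print where the limma adjusted p was below 0.01. CC-124, CC-1690 and CC-4533, set to the left, hold most of the lower values, down to -1.71 for DCRY1 in CC-4533, and DCRY1 in CC-4532 has the highest value, 1.54.

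In all, 4 of the 14 genes (28.6%) were DEGs in at least 1 of the 21 pairs, DCRY1, CHR1, HKR2 and HKR1, against 30.2% of all genes tested. With CC-125 replicate 1 and CC-4533 replicate 3 left out the number was again 4, with CHR2 in place of HKR1. All 4 libraries of a strain lay above the other 24 for 2 of the genes (DCRY1 and CHR2), against 25.6% of all genes tested, and below them for 4 (DCRY1, HKR1, HKR2 and UVR8), against 19.2%. Within the 5 strains of the larger library set alone, all 14 genes passed the F test, as did 87.4% of the genes tested there.

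The FPKMs of the 14 genes summed to 140 ± 2.91 (SD, n = 4) in CC-1690, 166 ± 26.3 in CC-124 and 169 ± 56.0 in CC-4533. The sums were 281 ± 10.3 in CC-4532, 299 ± 10.6 in CC-1009, 305 ± 33.3 in CC-125 and 336 ± 30.3 in CC-1691. Without replicate 3 the sum in CC-4533 was 141 ± 0.726 (SD, n = 3), next to that of CC-1690. Replicate 3 was at 253, close to the lowest culture of CC-125 at 269, and the lowest culture of CC-4533 was at 139.9. CHR1 and PHOT1 together made up between 52.9% ± 4.26 (CC-4533) and 68.4% ± 0.960 (CC-1691) of the sum (SD, n = 4).

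**Figure D4:**
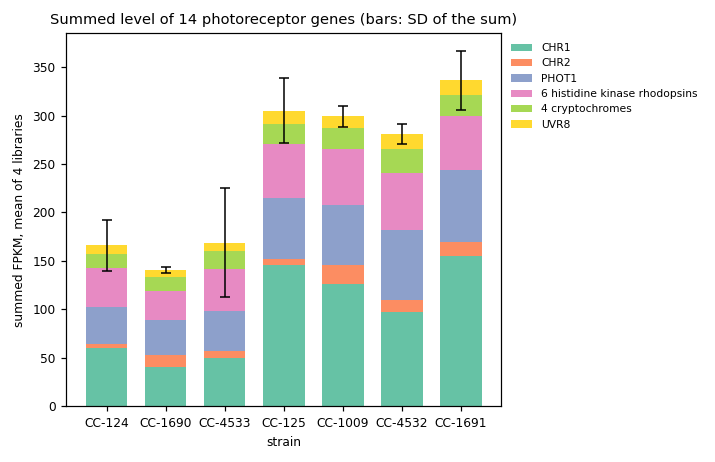
Summed FPKM of the 14 photoreceptor genes in each strain as the mean of 4 libraries, stacked by gene or gene group on an axis from 0, with error bars for the SD of the whole sum. The sum is 140 to 169 FPKM in CC-124, CC-1690 and CC-4533 and 281 to 336 FPKM in the other 4 strains.

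For the 3 genes with the widest span, the genes with a symbol whose strain means were most alike were looked up by Pearson correlation over the 7 strain means, as a description. For DCRY1 they were FAD7, an omega-3 fatty acid desaturase (0.992), RPE1, a ribulose phosphate 3-epimerase of the chloroplast (0.971), and the flagellar associated protein gene FAP411 (0.970). For CHR2 they were CGL28, a putative RNA binding protein (0.980), BST3, a bestrophin (0.964), and CPLD11 (0.964). The closest genes to HKR2 were TERC1 (0.980), the bestrophin gene BST2 (0.977) and FAP10 (0.971). Without CC-125 replicate 1 and CC-4533 replicate 3 the correlations of these 9 genes were 0.912 to 0.980. With 14785 genes and 7 points, correlations of this size say little about any single gene.

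Genes around the photoreceptors were read from 5 lists of symbols and definitions. Of 12 genes of the eyespot and of phototaxis, 11 were tested, 9 differed among strains by the F test, and 3 were DEGs, against 91.0% and 30.2% of all genes tested. Without CC-125 replicate 1 and CC-4533 replicate 3 all 11 differed. The DEGs were AGG2, AGG3 and AGG4, which are named after the aggregation of cells, and of which AGG2 and AGG3 are known to affect the direction of phototaxis. AGG2 ran from 6.17 ± 2.01 FPKM (SD, n = 4) in CC-1691 to 112 ± 15.5 FPKM in CC-1690 (DEG in 6 pairs), AGG3 from 15.4 ± 3.14 FPKM in CC-4533 to 73.2 ± 17.0 FPKM in CC-1690, and AGG4 from 34.5 ± 1.92 FPKM in CC-1009 to 145 ± 27.0 FPKM in CC-1690 (DEG in 3 pairs each, and AGG3 in 1 without these libraries). All 3 had their highest mean in CC-1690, as did 22.0% of all genes tested, and 23.1% had their lowest mean there. For AGG2, CC-124 was close to it, at 106 ± 25.9 FPKM (SD, n = 4). A relation to PHOT1 and UVR8, both lowest in CC-1690, was not tested. The eyespot genes were not uniform in that strain, with 4 of 11 higher and 5 lower than the log2 mean of the other 6 strains, against 29.2% and 30.4% of all genes tested.

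Among the partners in light signaling, 3 of 6 genes tested (of 7 listed) differed among strains, against 91.0% of all genes tested. PCOP1, the symbol in the table for the COP1 gene through which UVR8 signals, ran from 0.863 ± 0.127 FPKM (SD, n = 4) in CC-124 to 1.85 ± 0.0995 FPKM in CC-1009 and was a DEG in 0 pairs by limma's treat test (0 also at an unadjusted p below 0.05, and 1 by the moderated test with a 2-fold limit). CON1, a gene annotated by its likeness to CONSTANS of plants, was a DEG in 1 pair, with 46.8 ± 6.96 FPKM in CC-124 and 132 ± 5.90 FPKM in CC-1009. DDB1, CUL4 and SPA1 did not pass. Of 4 photolyase genes 3 were tested, and all 3 differed among strains, with 0 DEGs by limma's treat test (1 gene, PHR2, at an unadjusted p below 0.05 and 2, PHR2 and PHR4, by the moderated test with a 2-fold limit).

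Of 9 genes known to respond to light through phototropin or UVR8, 7 were tested and all 7 differed among strains, as did 91.0% of all genes tested. In CC-4532, 6 of the 7 were higher than the log2 mean of the other 6 strains, against 20.7% of all genes tested. In CC-4533 6 were lower than that mean, against 25.0% (4 without CC-125 replicate 1 and CC-4533 replicate 3). Strains near 0 FPKM pull a log2 mean down, and a call as higher does not mean above each other strain. The mean of LHCSR3A in CC-4532, for example, was below those in CC-1009 and CC-1690. Of the 7 genes 3 were DEGs, against 30.2% of all genes tested. They were LHCSR1, LHCSR3A and LHCSR3B, genes of proteins that dissipate excess light energy. LHCSR3A was at 198 ± 57.3 FPKM (SD, n = 4) in CC-1690, where PHOT1 was lowest, and at 50.4 ± 12.3 FPKM in CC-1691, where PHOT1 was highest. It was at 142 ± 11.4 FPKM in CC-1009 and 57.7 ± 8.89 FPKM in CC-4532. Its means were 1.16 ± 0.516 FPKM in CC-125, 0.95 ± 0.35 FPKM in CC-124 and, lowest, 0.0575 ± 0.0222 FPKM in CC-4533. CC-124 and CC-4533 were also low for PHOT1, with means of 38.1 and 41.2 FPKM. Whether LHCSR3A follows the level of PHOT1 was not tested. Of 3 genes for the synthesis and cleavage of carotenoids, from which retinal is made, 2 were tested (PSY1 for phytoene synthase and Cre16.g657800 for a cleavage dioxygenase) and both differed among strains. PSY1 was at 139 ± 7.74 FPKM (SD, n = 4) in CC-4532 and at 54.1 ± 14.1 FPKM in CC-4533.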

How the data were processed

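Poly(A) RNA of 28 cultures, 4 biological replicates of 7 strains, was measured as FPKM. Single-end reads of 50 nt were mapped by the authors with STAR against version 6.1 of the CC-4532 genome, with 1 location kept per read, and were counted per gene by strand with featureCounts, with fractions for reads of several locations. The authors calculated FPKM values from these counts with DESeq2 and deposited them rounded to 2 decimals. Reads shared by near-identical genes were thus kept at 1 location and could count as fractions there, which can lower the levels of such genes. Reads of all strains were mapped to the genome of 1 strain, whose effect on the levels of the others was not tested. Strain and replicate were taken from the labels, and mating type is the one the authors state for each strain. No per-library depth is given, so intervals for counting error are not shown.

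Values were tested as log2(FPKM + 0.1) with limma 3.58.1 in R 4.3.3 (trend in the variance, all 28 libraries, 14785 genes that averaged over 1 FPKM in 1 or more strains, Benjamini-Hochberg adjustment, limit 0.01). A moderated F test over strains, a treat test against 2-fold for the 21 pairs, and a moderated test of each strain against the mean of the other 6 were used. On this scale the fold of low genes is understated. Relative depth was estimated from 193 genes, where 94.4% of low values were within 0.1 of a whole read. All p-values treat the 4 cultures as independent, although those of 5 strains were inoculated as 2 batches, and which replicates shared one is not given.

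The 14 members and the lists of related genes were chosen with earlier results of these data known. Every member is named, as are the DEGs of the lists (at most 4 each) and, for the 3 members with the widest span, the 3 genes most like them; PCOP1, PSY1, the photolyases and list members that did not pass were named after their values were seen. The alternatives were a pseudocount of 1 or 0.01, no filter or a filter at 5 FPKM, quantile normalization, library set 1 alone, rescaling by the median ratio, a block for the replicate number, each library left out, an adjusted p below 0.05, each pair fitted alone, the moderated test with a 2-fold limit, and 2 libraries left out together. The fits and the depth estimate were tested on simulated data.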

Additional observations from a re-analysis of the deposited data

Results flagged for a closer look

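In 11 of the 98 groups of 4 cultures (14 genes in 7 strains), 1 library stood apart from the other 3 by more than Dixon's limit for 4 values, where chance gives about 5% of groups. Of these, 6 were replicate 3 of CC-4533, always on the high side: CHR1 at 96.9 FPKM (others 28.2 to 38.1), CHR2 at 16 (3.06 to 4.73), HKR2 at 10.7 (3.30 to 3.66), HKR4 at 5.80 (3.17 to 3.51), PCRY1 at 18.1 (10.4 to 11.6) and HKR56 at 6.14 (3.25 to 3.39). CC-125 replicate 1 was high for CHR2, at 11.04 FPKM (4.53 to 5.22), and CC-125 replicate 2 was low for HKR1, at 27.1 FPKM (30.6 to 31.1). CC-124 replicate 3 was high for CHR2, at 6.11 FPKM (4.19 to 4.38). The others were low: CC-1690 replicate 4 for PHOT1, at 33.8 FPKM (36.0 to 36.4), and CC-1009 replicate 1 for CHR1, at 118 FPKM (128 to 130).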

How the results depend on the processing

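None of the 60 called differences of a gene in a strain, and none of the 14 spans between highest and lowest strain, changed direction under any alternative run. The counts that moved by more than 1.5 times are as follows. DEGs in at least 1 pair were 2 with a pseudocount of 1 and 9 by the moderated test with a 2-fold limit, against 4. No share over all genes is given for these alternatives, and the 30.2% above is for the treat test as reported. The number lower in CC-125 was 0 with no filter on FPKM, 2 at an adjusted p below 0.05 and 2 with CC-125 replicate 1 and CC-4533 replicate 3 left out, against 1, and the number higher in CC-125 was 3 after quantile normalization, against 5. The number higher in CC-4533 was 0 with no filter and 0 with these libraries left out, against 1. The number higher in CC-1690 was 0 with a filter at 5 FPKM, 2 at an adjusted p below 0.05 and 2 without these libraries, against 1. The number lower in CC-1009 was 0 with a filter at 5 FPKM, against 1, and the number lower in CC-1691 was 1 in library set 1 alone, against 0. The number of genes for which CC-124, CC-1690 and CC-4533 were the 3 lowest strains was 9 without both libraries and 5 to 9 with each library left out, against 5. With a filter at 5 FPKM, CC-1009 had 8 genes higher and CC-4532 had 7. A filter at 5 FPKM leaves fewer genes tested, and the cause of the other shifts was not tested.

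With each library left out in turn, the F test called 13 to 14 genes, and 3 to 5 were DEGs in at least 1 pair. The numbers lower and higher were 6 to 10 and 0 in CC-124, 0 to 2 and 4 to 6 in CC-125, 0 to 1 and 5 to 9 in CC-1009, 8 to 9 and 1 to 2 in CC-1690, 0 and 5 to 8 in CC-1691, 0 and 6 to 12 in CC-4532, and 6 to 8 and 0 to 1 in CC-4533. Of the single differences and spans, 21 lost the call in at least 1 of these fits and 9 under quantile normalization. Quantile normalization shifted the median of a library by at most 0.07 on the log2 scale, and the median ratio by at most 0.01. The libraries were already near a common median ratio, so rescaling by it could change little.

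Same-numbered replicates of different strains did not deviate together (correlations of -0.37 to 0.28, with 12 of 84 pairs over 0.1, and 5 of 28 libraries closest to their own number). The numbers thus gave no sign of a pairing across strains. This check compares different strains and cannot show batches of cultures within a strain. With the replicate block the counts were as reported (14 by the F test and 4 DEGs).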
